A study of Mus musculus with 6 samples.

Results

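Glutathione S-transferases are the enzymes that join the tripeptide glutathione to reactive electrophiles, and their transcripts were examined in RAW264.7 macrophages exposed to SKI-II. The genes were taken by symbol from the deposited count table: Gsta3 and Gsta4 of the alpha class, Gstm1 of the mu class, Gsto1 of the omega class, Gstp1 of the pi class, Gstk1 of the kappa class, Gstz1 of the zeta class, and the microsomal Mgst1, Mgst2 and Mgst3. All 10 symbols matched 1 row each of the 49315 genes in the table. RAW264.7 is a transformed macrophage-like line from mouse, labelled as wild type, whereas SKI-II is a compound known to inhibit sphingosine kinase. The cells received 4 μg/mL of SKI-II, or the same volume of the solvent DMSO, for 24 h, with 3 libraries per condition. Poly(A) RNA was sequenced and the reads on each gene were counted. The methods say in general that experiments were repeated independently, and give biological replicates for the qPCR assay, whose treatment and RNA extraction were also used here. Neither they nor the labels say which repeat each library came from. The p-values measure the spread between these libraries.

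The cytosolic transferases work as dimers and fall into classes by sequence, whereas the microsomal ones are small membrane proteins of a separate family (MAPEG) that also makes leukotrienes and prostaglandins. Conjugation makes an electrophile more soluble, and the conjugate is then pumped out of the cell and trimmed to a mercapturate. Many genes of the cytosolic classes are known targets of Nrf2, which binds antioxidant response elements in their regulatory regions. In macrophages these enzymes act on products of lipid peroxidation, on quinones and on oxidized protein thiols.

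The libraries held between 12495957 and 20050677 counts. Genes with enough reads were kept by edgeR's filter, which left 12274 genes, and normalized counts are counts scaled by TMM factors to the mean library. The quasi-likelihood test of edgeR was applied, with Benjamini-Hochberg adjustment over all 12274 genes, and a gene is said to have risen or fallen where its adjusted p was below 0.05. Markers of macrophages were detected, with Csf1r at 16894.9 and Cd68 at 16599.5 normalized counts on average in DMSO. Of 10 such markers, Adgre1, Itgam, Lyz2 and Mrc1 fell (log2 fold changes from -1.61 to -0.92), Fcgr1 rose (2.17) and the other 5 were not called. Of all tested genes, 19.7% fell and 18.4% rose. Mrc1, which gave the -1.61, had 10, 6 and 19 counts in SKI-II, and those libraries alone would not have passed the filter. Of the exon length of Itgam, 68.7% is shared with another gene model on the same strand, so its reads are uncertain. The summed level of the 10 markers lay between 138151 and 203890 normalized counts in DMSO and between 71031 and 112241 in SKI-II. The part of this sum in the results below was not tested. Lyz2, a lysozyme, had the highest counts in that sum, and without it, a choice made after its values were seen, the other 9 summed to 48024 to 53316 and to 47412 to 50958. Of 15 markers of hepatocytes, fibroblasts, epithelium, lymphocytes and endothelium, 7 were at 0 in every library, Epcam and Krt8 among them, and the list summed to 14 to 20 counts in a DMSO library and 23 to 38 in an SKI-II library.

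With SKI-II the transcripts of Gsta3, Gsto1 and Gstp1 rose most, that of the mu enzyme Gstm1 rose less, and that of the microsomal Mgst3 fell. In RNA of a whole culture, another level in every cell and another number of cells that express a gene cannot be told apart. Of the 10 genes, 7 had enough reads for the test, and Gsta4, Gstk1 and Mgst1 had none in any library. Gsta3, Gstm1, Gsto1 and Gstp1 rose, where 18.4% of all tested genes rose, and Mgst3 fell, where 19.7% fell. Gsta3, Gsto1 and Gstp1 passed a log2 fold change of 1, as did 8.28% of all tested genes, and Mgst3 lay at -1.01, past a log2 fold change of -1, as did 7.44%. Gsta3 passed the filter on low counts only through its SKI-II libraries. The median log2 fold change of the 7 genes was 0.76, against 0.004 over all tested genes, and it was 0.35 with the filter of 10 counts in every library, which removes Gsta3. The groups did not overlap in the normalized counts of the 5 called genes, 4 of them with every SKI-II library above every DMSO library (24.8% of all tested genes) and 1 with every SKI-II library below (25.5%).

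**Figure D1:**
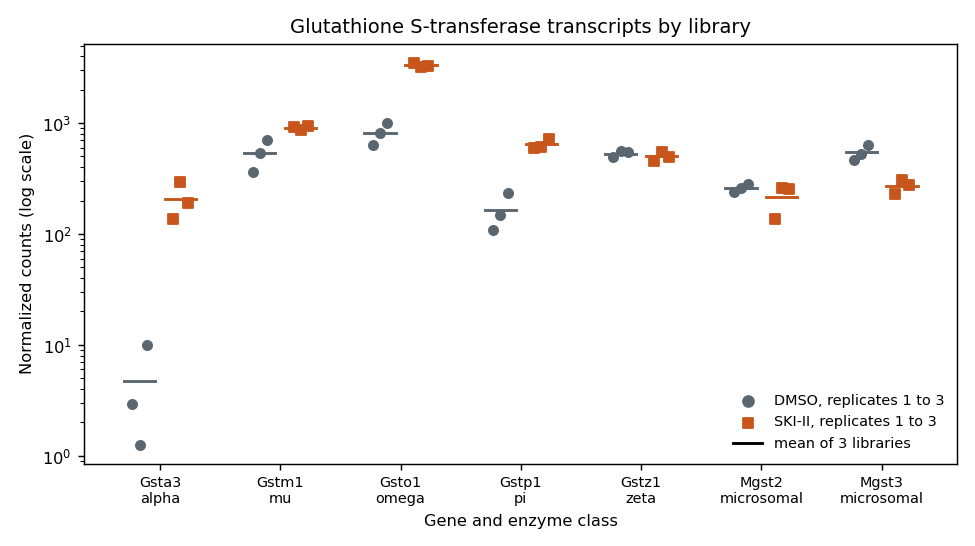
Normalized counts on a log axis for the 7 glutathione S-transferase genes with enough reads, grouped by gene and class, with 1 point per library and a bar at the mean of 3 libraries. The SKI-II squares lie above the DMSO circles for Gsta3, Gstm1, Gsto1 and Gstp1, below them for Mgst3, and overlap with them for Gstz1 and Mgst2.

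Gsta3, at chromosome 1, 21240589 to 21265661 in GRCm38, encodes an alpha-class enzyme known for conjugating the epoxide of aflatoxin. It was counted 3, 1 and 10 times in DMSO replicates 1, 2 and 3 and 123, 306 and 233 times in the SKI-II replicates. As normalized counts these were 2.91, 1.26 and 9.90 in DMSO and 138, 292 and 189.8 in SKI-II, so that the lowest SKI-II library stood well above the highest DMSO library. The log2 fold change was 5.36 (standard error 0.60, adjusted p = 5.87e-05), which is 41.2-fold. Because the DMSO level rests on 14 counts, this fold is loosely fixed, and it was 6.48 on the log2 scale without DMSO replicate 3, against 4.98 without DMSO replicate 2. Few of its reads could be mistaken for those of another gene. Only 0.3% of the 50-base words in its transcripts occurred in transcripts of other genes, and its coding sequence was 76.1% identical to that of Gsta1 and 77.0% to that of Gsta2, which had 2 and 1 counts over all 6 libraries. The counts of Gsta1 and Gsta2 are uncertain, since 90.5% and 49.8% of their own 50-base words occurred in other genes.

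The window from 250 bases before to 50 bases after the transcription start of Gsta3 is shown because it is the only one among the called genes that holds the core of the antioxidant response element, TGACNNNGC. The core, in capitals, has its leftmost base at position -121, counted from the start. Sequences of such windows here are from RefSeq on GRCm38.p6, are written in the direction of the gene, and have every motif found on either strand in capitals.
Gsta3 promoter, chr1:21240335-21240634, plus strand: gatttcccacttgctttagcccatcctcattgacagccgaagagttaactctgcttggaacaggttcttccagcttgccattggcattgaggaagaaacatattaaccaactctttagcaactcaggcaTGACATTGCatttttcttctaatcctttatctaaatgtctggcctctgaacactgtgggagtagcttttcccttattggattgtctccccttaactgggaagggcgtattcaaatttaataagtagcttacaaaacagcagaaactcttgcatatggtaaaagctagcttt

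The other alpha gene among the 10, Gsta4, known for conjugating the lipid peroxidation product 4-hydroxynonenal, had no counts in any library. Over the 96536322 counts of the 6 libraries, a count of 0 allows up to 3 counts, or an RPKM of 0.025 (counts scaled to exon length and library total). Its exons overlapped no other gene in GENCODE M21, and 0.0% of its 50-base words occurred elsewhere. The gene was thus not detected over the 6 libraries together. The sources used here do not name the annotation behind the counting, so the 0 of Gsta4, and likewise that of Gstk1 and Mgst1 below, is given as listed, and the limits are for all libraries pooled and not for either group.

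Gstm1, at chromosome 3, 108012255 to 108017973, is the mu-class enzyme of the set and conjugates epoxides and quinones. Its DMSO libraries held 365, 538 and 698 normalized counts, and its SKI-II libraries 921, 866 and 933. The SKI-II libraries lay close together and above all of the DMSO libraries, which were more widely spread. The log2 fold change was 0.76 (standard error 0.20, adjusted p = 0.0152), or 1.70-fold. Without DMSO replicate 2 the adjusted p was 0.0538 at the same log2 fold change, and leaving out DMSO replicate 1 gave 0.54 and leaving out DMSO replicate 3 gave 1.01. Reads of this gene may in part have been assigned to near copies, since 18.9% of its 50-base words were shared, chiefly with the pseudogene Gstm2-ps1 and with Gstm3, whose coding sequence was 89.5% identical. Gstm3 itself had 0 counts in DMSO and 1 in SKI-II.

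Gsto1, at chromosome 19, 47854970 to 47864790, encodes the omega-class enzyme, which has a cysteine in place of the usual catalytic tyrosine or serine and acts as a thioltransferase and dehydroascorbate reductase. DMSO libraries held 628, 809.9 and 1002 normalized counts and SKI-II libraries 3474, 3189.9 and 3294. Every SKI-II library was therefore far above the DMSO range, and the SKI-II libraries differed little from each other. The log2 fold change was 2.03 (standard error 0.16, adjusted p = 2.42e-05), or 4.08-fold, and stayed between 1.86 and 2.21 with any 1 library left out. None of its 50-base words occurred in another gene (0.0%). Its neighbour Gsto2, the other omega gene, lies 743 bases away, with 70.1% identity in the coding sequence. Gsto2 had 4 counts over the DMSO libraries and 3 over the SKI-II libraries, and the depth-scaled ratio was 0.669 with a 95% exact interval of 0.0981 to 3.96 that, like the other exact intervals given here, covers counting error only. The Gsto1 window is shown because this gene had the highest level of the set with SKI-II, and neither TGACNNNGC nor the AP-1 site TGANTCA was found in it.
Gsto1 promoter, chr19:47854723-47855022, plus strand: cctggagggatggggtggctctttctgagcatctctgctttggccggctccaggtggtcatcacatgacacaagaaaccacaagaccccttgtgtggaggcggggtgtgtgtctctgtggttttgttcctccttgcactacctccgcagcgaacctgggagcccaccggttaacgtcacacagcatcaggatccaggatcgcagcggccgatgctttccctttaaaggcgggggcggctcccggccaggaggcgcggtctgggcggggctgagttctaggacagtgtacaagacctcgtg

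Gstp1, at chromosome 19, 4035407 to 4037985, encodes the pi-class enzyme, which conjugates small electrophiles and is known to bind the stress kinase JNK. Normalized counts were 109, 149 and 232 in DMSO and 593, 609 and 719 in SKI-II. The lowest SKI-II library exceeded the highest DMSO library, and replicate 3 was the highest in each group. The log2 fold change was 1.97 (standard error 0.24, adjusted p = 0.000277), or 3.92-fold, and lay between 1.73 and 2.32 with any 1 library left out. The adjacent Gstp2 lies 2299 bases away and has a coding sequence 98.1% identical to that of Gstp1, so the division of reads between them is uncertain, and 33.7% of the 50-base words of Gstp1 were shared with Gstp2 or the pseudogene Gstp-ps. Gstp2 was given 8 counts in DMSO and 39 in SKI-II, which is 1.69% (95% exact interval 0.735 to 3.31) and 1.87% (1.33 to 2.54) of the reads assigned to both genes. The intervals of these shares overlapped. Gstp2 did not pass the filter, and its summed counts gave a depth-scaled ratio of 4.35 with an exact interval of 2.0 to 10.8. With no filter its log2 fold change was 2.05 (adjusted p = 0.0238 from edgeR), and DESeq2 gave 2.08 (adjusted p = 0.0683). The edgeR fit with no filter gave Gstp1 an adjusted p of 3.25e-22 in place of 0.000277. The adjusted p of that fit is thus not comparable with that of the main test.

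The Gstp1 window is shown because it holds an AP-1 site, TGAGTCA, whose leftmost base lies at position -74 and which runs on into GC. It thereby also matches TGAGNNNGC, a variant of the response element core with G at the fourth base, which was searched only after the sequences had been seen. The other capitals, from position -9, are the same variant on the opposite strand.
Gstp1 promoter, chr19:4037863-4038162, minus strand: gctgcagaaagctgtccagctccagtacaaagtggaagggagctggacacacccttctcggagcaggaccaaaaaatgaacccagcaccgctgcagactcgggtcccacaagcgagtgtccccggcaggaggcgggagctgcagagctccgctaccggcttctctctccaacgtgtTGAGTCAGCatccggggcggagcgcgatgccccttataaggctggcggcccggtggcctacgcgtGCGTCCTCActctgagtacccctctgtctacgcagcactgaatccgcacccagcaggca

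Gstz1, at chromosome 12, 87147165 to 87164723, is maleylacetoacetate isomerase, an enzyme of tyrosine breakdown. It held 490.5, 557 and 543 normalized counts with DMSO, against 455, 552 and 495 with SKI-II. The groups overlapped, and the difference was smaller than the spread between libraries (log2 fold change -0.08, standard error 0.14, adjusted p = 0.676). On the opposite strand, exons of Pomt2 and Gm6566 cover 12.2% of its exon length, so a small part of its reads is uncertain. Gstk1 of the kappa class, an enzyme of mitochondria and peroxisomes with a fold of its own, had no counts in any library. The limit set by 3 counts was an RPKM of 0.021, its exons overlapped no other gene and none of its 50-base words was shared (0.0%).

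Of the microsomal enzymes, Mgst3 fell, Mgst2 was not called and Mgst1 was not detected. Mgst3, at chromosome 1, 167371966 to 167393841, is a glutathione-dependent peroxidase and transferase of the endoplasmic reticulum. Normalized counts were 465, 523 and 639.7 in DMSO and 229, 306 and 275 in SKI-II. No SKI-II library reached the lowest DMSO library. Mgst3 fell by 1.01 on the log2 scale (standard error 0.17, adjusted p = 0.00168), to 0.498 of the DMSO level. The call held with any 1 library left out, with log2 fold changes from -1.12 to -0.87.

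Mgst2, at chromosome 3, 51660360 to 51682677, can make leukotriene C4 as well as conjugate electrophiles. It had 239, 258 and 281 normalized counts with DMSO, against 136.5, 259 and 254 with SKI-II. SKI-II replicate 1 stood below the rest, and the other SKI-II libraries lay within the DMSO range. The log2 fold change was -0.26 (standard error 0.24, adjusted p = 0.437), and -0.02 without SKI-II replicate 1. Mgst1, the microsomal enzyme known to be activated by modification of its cysteine, had no counts in any library, with an RPKM limit of 0.015 and no overlapping exon or shared 50-base word (0.0%). The Mgst3 window is shown for comparison as that of the gene that fell, and none of the motifs was found in it.
Mgst3 promoter, chr1:167393792-167394091, minus strand: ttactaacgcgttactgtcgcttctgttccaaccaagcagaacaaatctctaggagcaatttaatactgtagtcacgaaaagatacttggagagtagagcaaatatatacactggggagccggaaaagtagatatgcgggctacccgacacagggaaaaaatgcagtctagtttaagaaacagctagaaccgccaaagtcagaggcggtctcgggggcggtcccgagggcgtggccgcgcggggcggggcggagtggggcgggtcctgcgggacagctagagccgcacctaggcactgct

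Windows were found for 9 of the 10 genes, some with alternative starts, which gave 12 windows. The core TGACNNNGC lay in 2 of these, in Gsta3 and in the undetected Mgst1, against 12.4% of all 32851 windows of this length. The AP-1 site TGANTCA lay in the windows of Gstp1 and Mgst2, against 7.81% of all windows, and the variant TGAGNNNGC lay in 3 windows, those of Gstp1 and Gstz1, against 17.6%. The motifs were searched on both strands, and TGANTCA can overlap either core. Matches thus occurred in genes that rose, in genes that were not called and in a gene without reads. A match is a description of the letters in this window and says nothing about binding.

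To compare genes with each other, counts were expressed as RPKM, scaled to the merged exon length and the library total. The 10 genes together reached an RPKM of 79.1, 96.2 and 110.6 with DMSO, and of 194.5, 193 and 195 with SKI-II. All SKI-II sums lay above all DMSO sums, and they were closer together. The means were 95.3 ± 15.8 (SD, n = 3) and 194 ± 1.07 (SD, n = 3), a 2.04-fold difference, given as a description without a test. The order of the genes differed as well. In DMSO the highest mean levels were those of Mgst3 at 30.7, Gsto1 at 24.9 and Gstm1 at 22.4, whose ranges over the 3 libraries overlapped between neighbours. Gstz1 at 6.49 and Gstp1 at 6.48 followed and were not separated, then Mgst2 at 4.35 and Gsta3 at 0.0653.

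In SKI-II the mean levels per length were 102 for Gsto1, 38.3 for Gstm1, 25.7 for Gstp1, 15.3 for Mgst3, 6.12 for Gstz1, 3.63 for Mgst2 and 2.96 for Gsta3. Neighbours in this order did not overlap, except Mgst2 and Gsta3. Gsto1 made up 26.1% ± 0.427 (SD, n = 3) of the summed level in DMSO and 52.6% ± 2.54 (SD, n = 3) in SKI-II. Mgst3 went the other way, from 32.4% ± 2.19 (SD, n = 3) to 7.89% ± 1.15 (SD, n = 3). Gstp1 made up 6.69% and 13.2%, and Gstm1 23.2% and 19.7%, so that the share of Gstm1 was lower in SKI-II although its level was higher. Levels and shares were not corrected for the 50-base words shared with other genes, 33.7% for Gstp1 and 18.9% for Gstm1, against 0.0% for Gsto1 and Mgst3. Despite its 41.2-fold change, Gsta3 contributed 1.53% ± 0.593 (SD, n = 3) of the summed level in SKI-II. With the length of the longest transcript in place of merged exons, Gsto1 led in DMSO too, at 42.6 against 30.7 for Mgst3, and Gstp1 at 48.5 stood above Gstm1 at 43.8 in SKI-II.

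**Figure D2:**
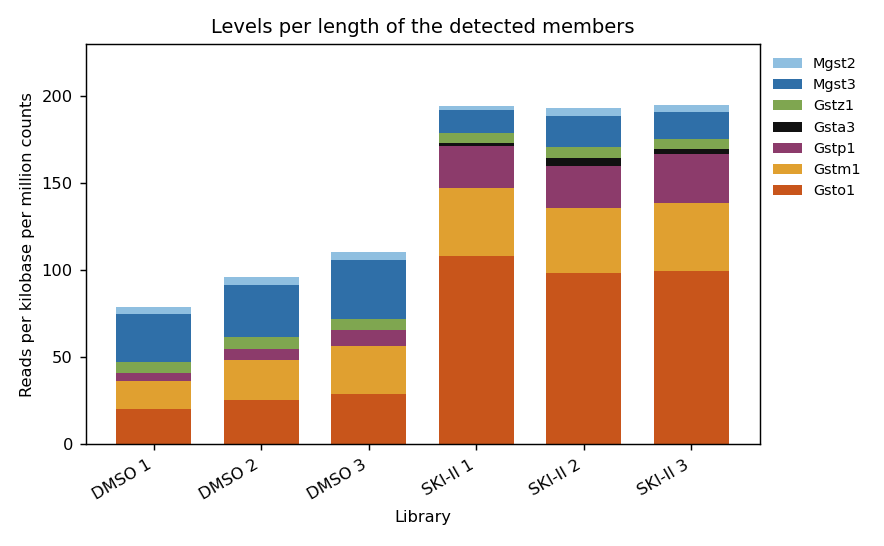
Stacked bars of RPKM over merged exons for the 7 detected genes, 1 bar per library, with the axis starting at 0. The SKI-II bars reach 193 to 195 and are made mostly of Gsto1, while the DMSO bars reach 79.1 to 110.6 and hold a larger Mgst3 segment.

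Other genes of the superfamily were followed in a list of 22 symbols, of which 20 matched a gene and 8 had enough reads. Among these, Gstm4 and Alox5ap rose, Gstcd fell and 5 were not called, where 18.4% of all tested genes rose and 19.7% fell. Their median log2 fold change was 0.24. Gstm4, a mu-class gene next to Gstm1, held 24.3, 19.0 and 24.8 normalized counts with DMSO, against 69.4, 63.9 and 82.3 with SKI-II. All SKI-II libraries exceeded all DMSO libraries (log2 fold change 1.65, standard error 0.29, adjusted p = 0.00173), and none of its 50-base words was shared with another gene (0.0%). Its reads were 4.13% (95% exact interval 3.21 to 5.24) of those of Gstm1 and Gstm4 together in DMSO and 7.41% (6.51 to 8.38) in SKI-II, where the intervals cover counting error only and the difference between conditions was not tested.

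Alox5ap, which presents arachidonic acid to 5-lipoxygenase and belongs to the family of the microsomal enzymes, rose from a mean of 3289 normalized counts (SD 504, n = 3) to 4814 (SD 939, n = 3). Its log2 fold change was 0.55 (adjusted p = 0.0280 from edgeR's test), the groups overlapped, and 4 of the 6 libraries were needed for the call, namely DMSO replicates 1 and 2 and SKI-II replicates 2 and 3, without which the adjusted p was 0.0763, 0.122, 0.121 and 0.054. Ltc4s and Ptges, the synthases of leukotriene C4 and prostaglandin E2 in the same family, had log2 fold changes of 0.51 (adjusted p = 0.0978) and 0.30 (adjusted p = 0.365). Hpgds, the sigma-class prostaglandin D2 synthase, had 0.18 (adjusted p = 0.574). The theta-class genes Gstt2 and Gstt3 had 0.16 (adjusted p = 0.702) and -0.05 (adjusted p = 0.877), and Gstt1 was below the filter with 41 counts in DMSO and 24 in SKI-II. Gstcd, a protein with a transferase-like domain, fell from a mean of 506 normalized counts (SD 18.2, n = 3) to 323 (SD 83.1, n = 3). Its log2 fold change of -0.65 (adjusted p = 0.0235) was not called without DMSO replicate 2 (0.0772) or SKI-II replicate 2 (0.061).

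**Figure D3:**
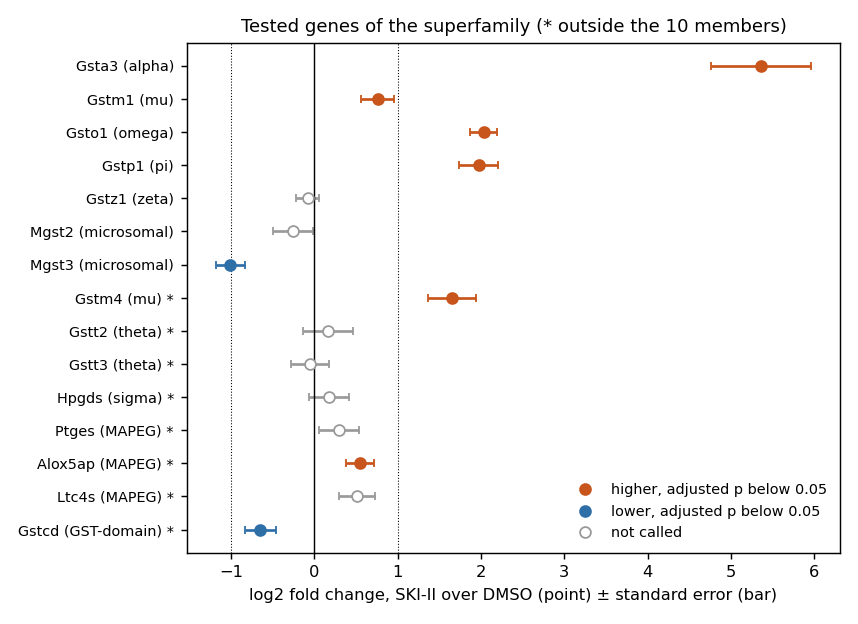
Fitted log2 fold changes of SKI-II over DMSO with standard errors as bars for the 15 tested genes of the superfamily, the 7 of the set first and 8 others marked with an asterisk, with dotted lines at -1 and 1. Filled points passed an adjusted p of 0.05, among them Gsta3 far to the right at 5.36, Gsto1, Gstp1 and Gstm4 between 1.65 and 2.03, and Mgst3 at -1.01.

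Conjugation depends on glutathione, which is made by glutamate-cysteine ligase and glutathione synthase from imported cystine. Of 6 genes for this supply, 3 rose, against 18.4% of all tested genes, and 3 were not called. Gclm, the modifier subunit of the ligase, changed by 2.43 on the log2 scale (adjusted p = 1.37e-05), and the cystine transporter subunits Slc7a11 and Slc3a2 by 1.59 (adjusted p = 0.000246) and 1.43 (adjusted p = 0.0116). Slc3a2 was uneven, with 29463, 12505 and 9544 normalized counts in SKI-II replicates 1, 2 and 3, and its log2 fold change was 0.79 without SKI-II replicate 1. The catalytic subunit Gclc at 0.49 (adjusted p = 0.0742), the synthase Gss at 0.07 (adjusted p = 0.758) and the reductase Gsr at 0.05 (adjusted p = 0.772) did not pass the test. Gclc passed in 4 of 14 alternatives, with adjusted p from 0.00777 to 0.223.

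After conjugation, ABCC pumps export the product and ectoenzymes remove its glutamate and glycine. A list of 20 genes for these steps and for further changes of the conjugate had 15 with enough reads. Of these 6 rose and 1 fell, against 18.4% and 19.7% of all tested genes, with a median log2 fold change of 0.55. Of the 6, Abcc2 and Ggt1 were tested only because of their SKI-II counts. Among the pumps, Abcc3 changed by 1.32 (adjusted p = 7.41e-05), Abcc2 by 1.57 (adjusted p = 0.0130), Abcc4 by 0.94 (adjusted p = 0.0102) and Abcc1 by 0.76 (adjusted p = 0.00441). Abcc1, known as MRP1, drew the most reads of them, with 6416, 7486 and 8929 normalized counts under DMSO, and with 12004, 12198 and 14593 under SKI-II, so that the groups were apart. Abcc2 rested on 20 counts in DMSO and 66 in SKI-II and, like Gsta3, passed the filter only through its SKI-II libraries. Without SKI-II replicate 1 the adjusted p was 0.0543 for Abcc2 and 0.0502 for Abcc4. Abcc5 at 0.55 (adjusted p = 0.0673) was not called, although it passed in 5 of 14 alternatives. Its adjusted p ran from 0.0025, with no filter, to 0.153.

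Of the trimming enzymes, the dipeptidase Dpep2, which also cleaves leukotriene D4, had a mean of 306 normalized counts in DMSO (SD 37.2, n = 3) and rose to 1180.1 (SD 236, n = 3), with no overlap of the groups (log2 fold change 1.95, adjusted p = 4.1e-05). Of its exon length, 40.4% is shared with other gene models on the same strand, so its reads are uncertain. Ggt1, the gamma-glutamyl transferase that takes the glutamate off, rose by 1.76 (adjusted p = 0.0396) on 12 counts in DMSO and 47 in SKI-II, and this value was 2.65 without DMSO replicate 3 and 1.26 without DMSO replicate 1. It passed the filter only through its SKI-II libraries, and the call was lost with DESeq2 and with 5 of the 6 libraries left out in turn. Anpep, an aminopeptidase of the cell surface, fell by 0.48 on the log2 scale (adjusted p = 0.0315), and was not called with any 1 of DMSO replicates 2 and 3 and SKI-II replicates 2 and 3 left out (adjusted p up to 0.131). Lap3, Cndp2 and Ggt7 did not pass the test. Nor did Acy1 and Acy3, listed for deacetylation, or the beta-lyase Kyat1, which do not remove glutamate or glycine. Among all of these Acy3 was closest at 1.15 (adjusted p = 0.0508). Acy3, which rests on 45 counts in DMSO and 116 in SKI-II, passed in 5 of 14 alternatives (adjusted p from 0.0336, with no filter, to 0.219). Lap3, at -0.33 (adjusted p = 0.113), passed in 2 of 14 (0.0289 to 0.302).

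**Figure D4:**
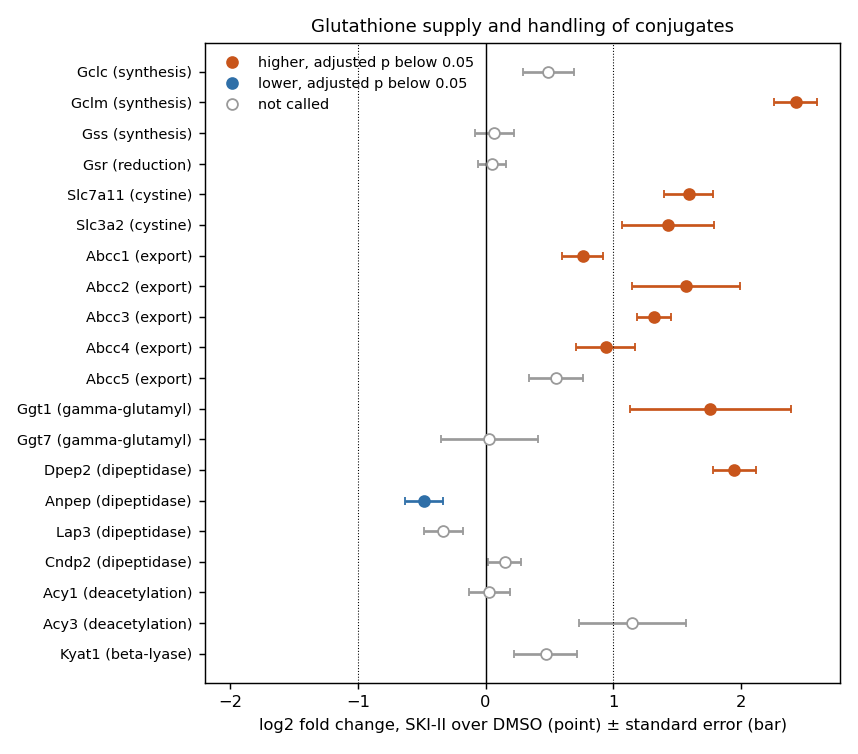
Fitted log2 fold changes of SKI-II over DMSO with standard errors as bars for tested genes of glutathione supply, at the top, and of export and further handling of conjugates, below, with dotted lines at -1 and 1. Filled points passed an adjusted p of 0.05, and they include Gclm at 2.43, Dpep2 at 1.95 and the pumps Abcc1 to Abcc4 between 0.76 and 1.57, with Anpep at -0.48.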

How the data were processed

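RNA-seq libraries of RAW264.7 cells, 3 with SKI-II and 3 with DMSO, were grouped by their labels. Per the labels, the authors trimmed reads with Trimmomatic 0.36, mapped them with STAR 2.5.2b, counted them with featureCounts of Subread 1.5.2 and deposited raw counts per Ensembl gene. No genome build, annotation release or strand setting was given in the sources used here. Names, positions and lengths were taken from GENCODE M21 (GRCm38), which held 49056 of the 49315 identifiers. Depth was 12495957 to 20050677 counts per library. No pair of replicates differed by as little as sampling noise (chi-square per degree of freedom 15.4 to 58.1 over genes with at least 20 counts).

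The main test was edgeR 4.0.16 in R 4.3.3 (quasi-likelihood F test, TMM, minimum count 10, minimum total 15, Benjamini-Hochberg adjustment over 12274 genes). Standard errors came from the model weights and the moderated dispersion. In simulated counts for this comparison, 93.5% of 200 genes changed by a log2 fold change of 2 were recovered over 12100 genes, with 17 false calls. Alternatives were DESeq2 1.42.0, limma-voom 3.58.1, RLE or no scaling, other filters, a prior count of 2, a test against a log2 threshold of 1, each library left out, a replicate block, and other lengths and denominators. Exact intervals are Clopper-Pearson at 95%. Coding identity comes from global alignment (Biopython 1.88) and stands in for the planned comparison of proteins. Named genes are the 10 members, other superfamily genes that were tested or had at least 10 counts, and called genes of the other lists. Further genes are given where they bear on a value, and some listed genes are not reported here. Members and lists were chosen with earlier results of these data known. Figures were drawn with matplotlib 3.10.9.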

Additional observations from a re-analysis of the deposited data

How the results depend on the processing

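Of the calls on the 7 tested glutathione S-transferase genes under each alternative, 96 of 97 kept their direction and their side of the threshold. The exception was Gstm1 without DMSO replicate 2. The prior count of 2 alters the printed log2 fold change and not the p-value. No call could change under it, in these genes or in the others counted below. For the 29 other tested genes of the superfamily, glutathione supply and conjugate handling lists, 370 of 404 kept their side of the threshold, 18 lost the call and 16 gained it. The macrophage markers were not followed under the alternatives. No called gene outside these markers turned its direction. Gstt2, Gstt3, Hpgds, Ggt7, Acy1, Gss and Gsr, none of them called, reached or crossed 0 in at least 1 alternative. Mgst3 sits at the fold threshold, so the number of the 10 genes past a log2 fold change of -1 was 0 with limma-voom, with RLE scaling, with at least 10 counts in every library and with the test against a log2 threshold of 1, and 0 to 1 with each library left out. Against that threshold, 341 genes were higher and 381 lower over the whole table, in place of 1016 and 913. With each library left out, the other superfamily genes that rose numbered 1 to 3 and those that fell 0 to 1, and the conjugate handling genes that fell numbered 0 to 2. With the length of the longest transcript, the summed level was 128 in DMSO and 302 in SKI-II, and 3 and 5 of the 7 detected genes kept their rank. With the TMM-scaled library size 5 of 7 kept it in DMSO, since Gstp1 and Gstz1 changed places. The labels do not say whether the replicate numbers pair the libraries. Deviations of same-numbered libraries correlated at 0.246, 0.01 and 0.458 for replicates 1, 2 and 3. Not every library correlated best with its own number, and 3 libraries per condition cannot settle whether a batch was shared. With the replicate block 2 conjugate handling genes fell in place of 1, 8 rose in place of 6, 4 glutathione supply genes rose in place of 3, and 5584 genes were called over the whole table in place of 4668, with 5 of the 10 genes called in either fit. Depth limits Gsta3 in DMSO, Gstp2, Ggt1 and Abcc2, whose levels rest on few counts.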

Other observations

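The mu, pi and omega genes lie in clusters, and neighbours within them drew very unequal numbers of reads. In the mu cluster of chromosome 3, Gstm1 and Gstm4, which lie next to each other with 22434 bases between them, held 1507 and 65 counts over the DMSO libraries, while Gstm2 on the other side of Gstm1 had 2 per condition. Gstm5 and Gstm7 had at most 2 counts in any library, and Gstm6 had none. Gstp3, in the pi cluster with Gstp1 and Gstp2, had 1 count in each condition. In the alpha class, Gsta1 and Gsta2, on chromosome 9 like the undetected Gsta4, had 2 and 1 counts over all libraries, which are uncertain because of near copies, while Gsta3 lies alone on chromosome 1.

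In the theta cluster of chromosome 10, Gstt3 held 159, 121 and 199 normalized counts with DMSO, against 138, 143 and 182 with SKI-II. Gstt2 held 47.6, 44.2 and 36.6 with DMSO, against 60.4, 38.2 and 45.6 with SKI-II. The groups overlapped for both genes. Gstt4 had 1 count over the DMSO libraries and 3 over the SKI-II libraries. Hpgds differed more between replicates than between conditions, with 1212, 926 and 649 normalized counts under DMSO, against 1309, 1056 and 805 under SKI-II. The order of the replicates was the same in both groups. With the replicate block the adjusted p of Hpgds from edgeR was 0.164 in place of 0.574.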
